A study of Mus musculus with 12 samples.

Results

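Solute carriers are a large group of membrane transporters, and their genes carry the prefix Slc followed by a family number. Described here are 157 such entries of a mouse CD4 T cell count table, out of 379 entries with a name of that form and 54532 entries in all. They were chosen by name and by having at least 200 counts summed over 12 libraries, leaving out Slc2a1, Slc2a3, Slc29a1 and names with -ps. The sum takes no account of the subset, so it is not a contrast between subsets, but a member can reach it through 1 subset alone. Members just inside the threshold were Slc36a3os with 227 counts, Slc25a14 with 241 and Slc19a2 with 243, and Slc3a1 with 183, Slc25a47 with 162 and Slc12a8 with 157 fell just outside. All 157 also had enough counts to be tested. Without the subset holding most of their counts 9 members would fall below 200, namely Slc16a3, Slc19a2, Slc24a3, Slc25a14, Slc27a6, Slc2a8, Slc36a3os, Slc43a1 and Slc9b2. Since that subset brought them in, their values are given below as a description with no test. A total of 4 members are not carriers but are named after one, namely the scaffold protein Slc9a3r1 (NHERF1), Slc4a1ap, Slc7a6os and Slc36a3os.

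RNA was measured in 12 libraries of untreated CD4 T cells sorted fresh from combined spleen and lymph node, 3 from each of 4 subsets. All came from polyclonal wild-type C57BL/6 mice carrying a Foxp3-GFP reporter, so no subset differs in genotype or treatment. Naive cells were CD44low. The effector sort (Teff) took CD44high FOXP3- cells with low CD73 and FR4, and the Anergic sort took CD44high FOXP3- cells with high CD73 and FR4 that carried NRP1. Regulatory T cells (Treg) were FOXP3+ CD25+. The labels give no age or sex, and do not say whether replicates came from separate animals or pools, so the p-values speak of the spread among these 12 libraries, which may be technical.

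Solute carriers move amino acids, sugars, ions, metals, nucleotides and lipids across the plasma membrane and the membranes of mitochondria, lysosomes, endosomes and the Golgi. Most are secondary transporters, which couple the movement of 1 solute to the gradient of another, or exchangers. In T cells, uptake of leucine and glutamine through carriers such as LAT1 (Slc7a5 with its heavy chain Slc3a2) and ASCT2 (Slc1a5) is known to feed mTORC1 and to rise when a resting cell is activated.

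Libraries held 6909035 to 9527897 counts, and the members took 0.387 to 0.490% of them. Levels are given as CPM, counts scaled to a common library size with trimmed-mean (TMM) factors, and each subset's value is mean ± SD, n = 3. A log2 change is a log2 fold change with its standard error (SE). Ribosomal and other abundant RNA entries took 28.1 to 39.6% of counts, the most in Anergic replicate 3. The sort markers followed the labels only in part. Foxp3, which defines Treg, was highest there, at 542 ± 16.2 CPM. It stood at 18.2 ± 2.81 CPM in Anergic, 1.35 ± 0.221 in Naive and 0.733 ± 0.33 in Teff. Anergic libraries, although sorted as FOXP3-, were thus called higher in Foxp3 than Teff and Naive. The part of this in the differences of Anergic cells below was not tested. Nrp1 stood at 332 ± 34.9 CPM in Anergic against 62.6 ± 7.77 in Teff. Treg were also called higher in Nrp1 than Teff, and the rise of Anergic over Treg was smaller than that over Teff. Markers of other cells moved between subsets too. The summed level of 7 NK and innate-like T cell markers was 205 to 267 CPM in Teff libraries, 42.8 to 47.7 in Anergic, 8.39 to 10.9 in Naive and 4.22 to 5.94 in Treg. The defining NK marker Ncr1 was at 0 in Anergic and Treg and at 0.0412 CPM in Naive and Teff. The 7 B cell markers summed to 407 to 497 CPM in Treg against 180 to 282 over the other libraries, most of it Ighm. The 5 plasma cell markers summed to 39.1 to 42.9 CPM in Naive and 71.5 to 98.6 in the other libraries, with the defining marker Sdc1 below 1 CPM in every subset mean, and all 4 tested were called higher against Naive in the 3 comparisons. The 2 CD8 markers summed to 12.6 to 17.1 CPM in Naive, 9.86 to 11.8 in Treg, 5.05 to 5.86 in Anergic and 3.7 to 6.23 in Teff, nearly all Cd8b1. Of 6 stromal and endothelial markers, which summed to 207 to 219 CPM in Naive, 149 to 166 in Treg, 127 to 148 in Anergic and 109 to 110.4 in Teff, nearly all was Pecam1. The 10 myeloid and dendritic cell markers summed to 23.1 to 25.3 CPM in Naive and 29.4 to 35.4 in the other libraries, mostly Cst3. The 6 erythroid markers summed to at most 0.909 CPM in any library. The part of these markers in the differences below was not tested. In bulk RNA, fewer cells expressing a gene and less of its RNA per cell cannot be told apart.

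Tests were edgeR quasi-likelihood F tests over all 13393 genes with enough counts, and a gene is called at a Benjamini-Hochberg adjusted p under 0.05. A total of 99 of 157 members (63.1%) were called among the 4 subsets, against 56.0% of all genes tested. Members had to reach a minimum count sum and the genes tested did not, so these shares are not matched for expression. The same holds for the all-gene shares set beside members below. A filter of 5 CPM in 3 libraries raised the all-gene share in each comparison between subsets. For Anergic against Teff it went from 3566 of 13393 genes to 3109 of 10105. Of the 99 called members, the highest mean was in Anergic for 29.3%, in Treg for 26.3% and in Naive and Teff for 22.2% each. Over all called genes these shares are 29.0% for Anergic, 20.1% for Treg, 30.1% for Naive and 20.8% for Teff, so that of Anergic is near the background. The lowest mean was in Naive for 41.4%, in Treg for 22.2%, in Anergic for 19.2% and in Teff for 17.2%, against 38.0%, 17.7%, 27.9% and 16.4% of all called genes. Most differences were small: the highest subset mean was under 1.2 times the lowest in 27 members, between 1.2 and 2 times in 90, between 2 and 4 times in 19 and over 4 times in 21. The 58 members that were not called had a median ratio of 1.27 and none above 1.82.

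Anergic cells were higher than Teff in 26 members and lower in 24. Of all tested genes 26.6% are called there, 13.9% higher and 12.7% lower. The called members with the largest rises among those averaging at least 10 CPM in the higher subset, with no overlap of libraries, were Slc37a2, Slc25a42, Slc22a15, Slc41a1, Slc5a3 and Slc26a2 (log2 fold changes 2.26, 2.05, 1.95, 1.27, 1.13 and 1.1). Under the same rule the largest falls were in Slc27a6, which reached 200 counts through Teff, and then Slc16a6, Slc20a1, Slc17a9, Slc11a2 and Slc25a25 (log2 fold changes -2.03, -0.94, -0.86, -0.68 and -0.64). Against Treg, 25 members were higher in Anergic cells and 29 lower, where 31.0% of all genes are called (15.6% and 15.3%). Slc26a11, Slc9a9, Slc25a42, Slc37a2, Slc22a15 and Slc39a4 led the rises (log2 fold changes 2.53, 1.74, 1.7, 1.62, 1.51 and 1.4). The falls were led by Slc35d1, Slc17a9, Slc22a5, Slc7a5, Slc25a25 and Slc16a6 (log2 fold changes -2.26, -1.87, -1.55, -0.99, -0.92 and -0.91). Treg exceeded Teff in 32 members and fell below in 26, where 29.1% of all genes are called (15% and 14.1%). In that comparison Slc35d1, Slc22a5, Slc7a5, Slc17a9, Slc35g1 and Slc44a1 led the rises (log2 fold changes 2.25, 1.44, 1.01, 1.01, 0.95 and 0.94). The falls were led by Slc27a6, with the same limit, and then Slc26a11, Slc9a9, Slc20a1, Slc16a6 and Slc25a24 (log2 fold changes -1.77, -1.74, -1.43, -1.12 and -0.96).

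The 9 members that reached 200 counts through 1 subset hold 2 of the rises and 1 of the falls of Anergic cells against Teff, the same numbers against Treg, and 3 rises and 2 falls of Treg against Teff.

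The 3 comparisons with Naive cells share the Naive libraries and are given side by side. Anergic cells were higher in 48 members and lower in 34, where 46.2% of all tested genes are called (25% and 21.3%). Teff were higher in 40 and lower in 23, against 34.9% of all genes (19.2% and 15.7%). Treg were higher in 40 and lower in 25, against 32.8% of all genes (19% and 13.9%). Those 9 members hold 6, 5 and 4 of the rises in Anergic, Teff and Treg and 0 of the falls. With library totals in place of TMM the splits became 40 and 14 for Teff and 45 and 13 for Treg, and without Teff replicate 2 the Teff split was 43 and 15. Rises by the rule above in Anergic cells were led by Slc22a15 (4.23), Slc39a4 (3.6), Slc9a7 (3.43), Slc25a24 (2.07), Slc4a8 (2.03) and Slc25a42 (1.82, log2 fold changes). Teff rises were led by Slc27a6, again with that limit and with 2 counts in all Naive libraries, then Slc39a4 (2.98), Slc9a7 (2.56), Slc22a15 (2.28), Slc25a24 (1.92) and Slc4a7 (1.62). Those in Treg were led by Slc22a15 (2.72), Slc9a7 (2.42), Slc35d1 (1.82), Slc22a5 (1.56), Slc4a8 (1.54) and Slc4a7 (1.45). Slc16a5 led the falls in all 3, with log2 fold changes of -3.37 in Anergic, -1.98 in Teff and -3.65 in Treg. After it came Slc17a9, Slc25a23, Slc7a5, Slc25a25 and Slc12a7 in Anergic, Slc7a5, Slc17a9, Slc44a1, Slc25a23 and Slc44a2 in Teff, and Slc20a1, Slc12a7, Slc25a23 and Slc39a14 in Treg. The median log2 fold change over the 157 members lay between -0.02 and 0.09 in the 6 comparisons, where that over all tested genes lay at 0.00 or 0.01.

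**Figure D1:**
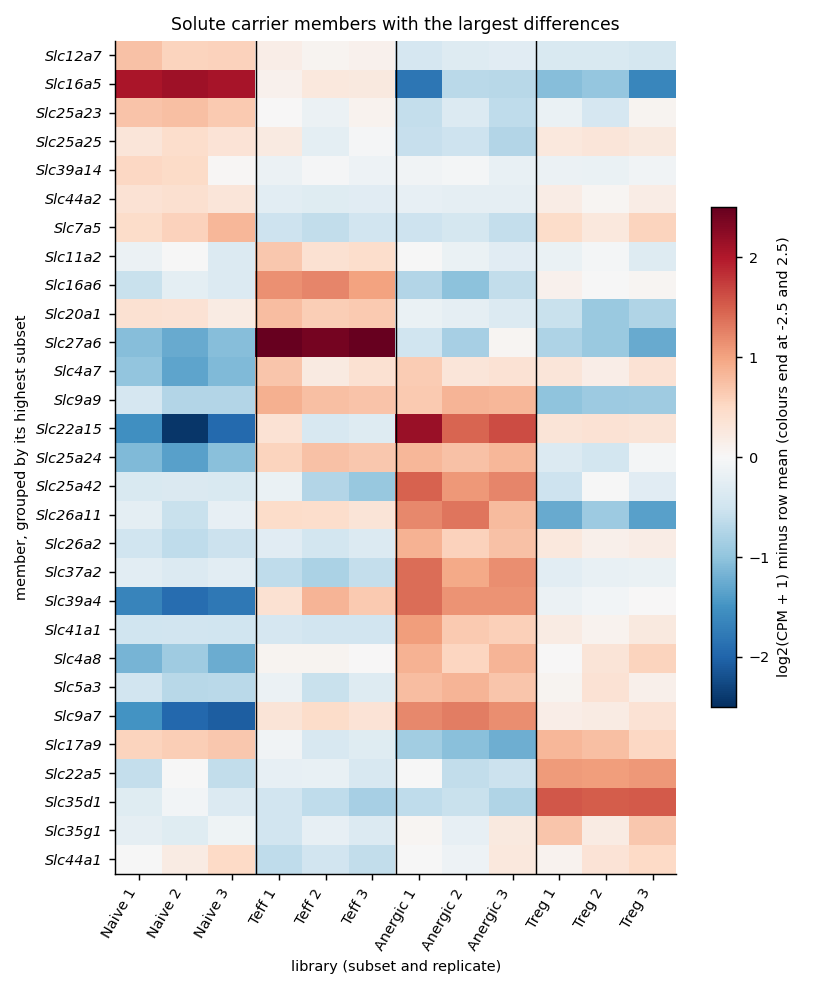
Heat map of 29 members that the rule on size named in at least 1 comparison, by library (columns), with colour for log2(CPM + 1) minus the member's mean over libraries, ending at -2.5 and 2.5. Slc16a5 is high in Naive, Slc27a6 in Teff, Slc37a2 and Slc25a42 in Anergic and Slc35d1 in Treg libraries.

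**Figure D2:**
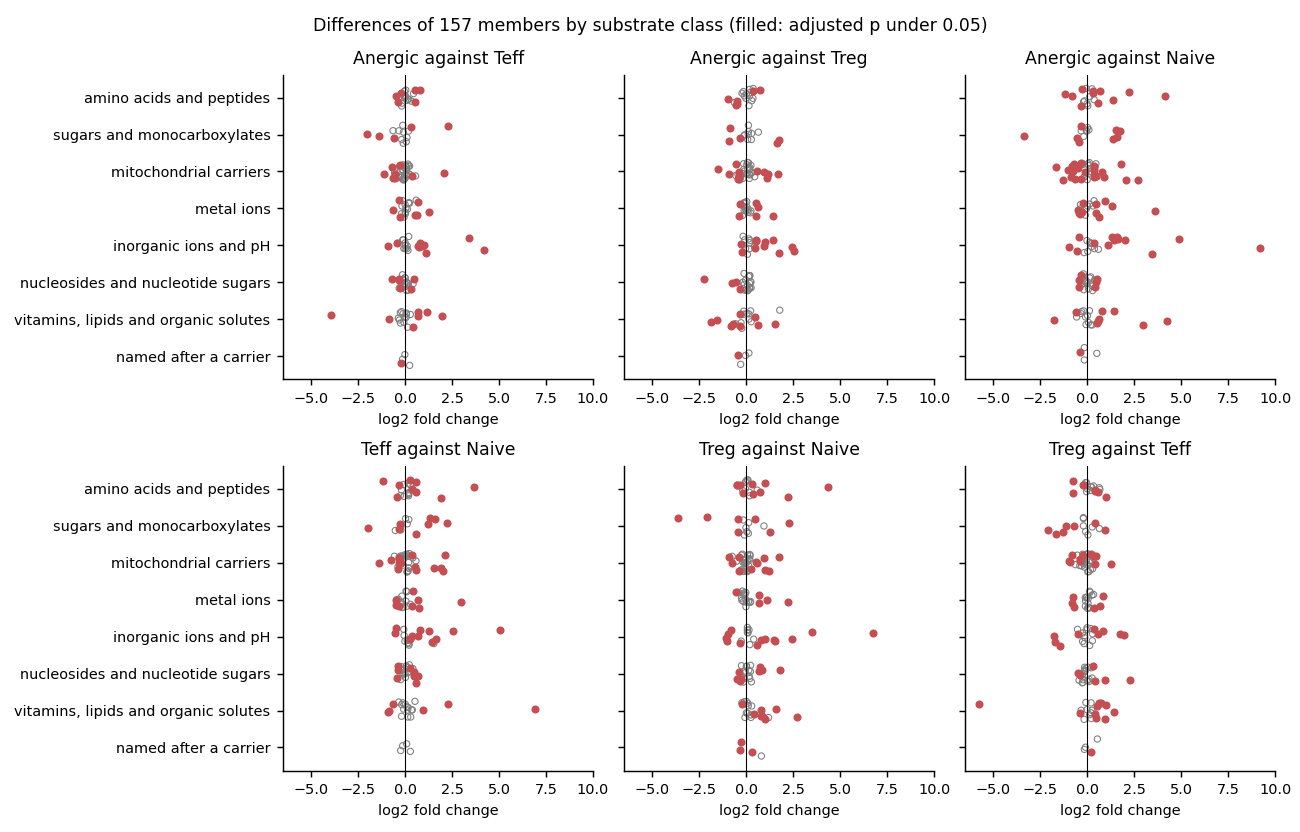
Log2 fold change of each of the 157 members in the 6 comparisons, in 1 panel each and with 1 line per substrate class. Filled points are called at an adjusted p under 0.05 and open points are not, the medians over all members lie between -0.02 and 0.09, and the farthest right point for Anergic against Naive is Slc24a3, a fitted value against 0 counts that is no bound.

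By substrate class, inorganic ion carriers had 10 of 21 members higher and 3 lower in Anergic cells than in Naive (median log2 fold change 0.38), where 25% and 21.3% of all tested genes are called. Against Teff 8 were higher and 2 lower (median 0.11, all genes 13.9% and 12.7%), and against Treg 9 and 2 (median 0.19, all genes 15.6% and 15.3%). Slc24a3 and Slc9b2, which reached 200 counts through Anergic, belong to this class. Both are among the Anergic rises counted against Naive, Teff and Treg, so these counts partly follow from how members were chosen. In Teff against Naive 9 of the 21 were higher and 2 lower (median 0.21, all genes 19.2% and 15.7%). Treg against Naive gave 8 and 5 (median 0.14, all genes 19% and 13.9%). Mitochondrial carriers had 11 of 37 higher and 12 lower in Anergic cells than in Naive. They had 2 higher and 6 lower than in Teff, and 5 higher and 7 lower than in Treg, beside the all-gene shares given above for Anergic cells. Carriers of vitamins, lipids and organic solutes had 8 of 20 higher and 2 lower in Treg than in Teff, where 15% and 14.1% of all genes are called. Against Naive they had 7 higher and 1 lower in Treg, 7 and 2 in Anergic and 3 and 3 in Teff. The all-gene shares there are 19% and 13.9%, 25% and 21.3%, and 19.2% and 15.7%. The comparisons share libraries, and the median over all tested genes was 0.00 or 0.01 in each.

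Levels between genes are compared per kilobase of annotated exon. Over the 4 subsets they ran from 0.442 to 127 CPM per kilobase with a median of 3.24, and 10 members held 38.7% of the summed level. Slc9a3r1 led with 127, and the mitochondrial adenine nucleotide carrier Slc25a5 (76.4), the phosphate carrier Slc25a3 (26.7) and Slc25a4 (25.1) followed. Then came the CD98 heavy chain Slc3a2 (22.1), the sugar transporter Slc50a1 (22), the choline transporter-like Slc44a2 (20.5), the endosomal proton exchanger Slc9a9 (16.3), the phosphate importer Slc20a1 (16) and the glutamine carrier Slc1a5 (15.9). The summed level of all members was 4266 to 4646 CPM over the 12 libraries. By class, carriers of inorganic ions reached a sum of 916 ± 22.9 CPM in Anergic cells and 891 ± 54.7 in Teff. Their sum was 733 ± 35.4 CPM in Naive and 697 ± 6.37 in Treg. Mitochondrial carriers summed to 874 to 886 CPM in the 4 subset means.

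**Figure D3:**
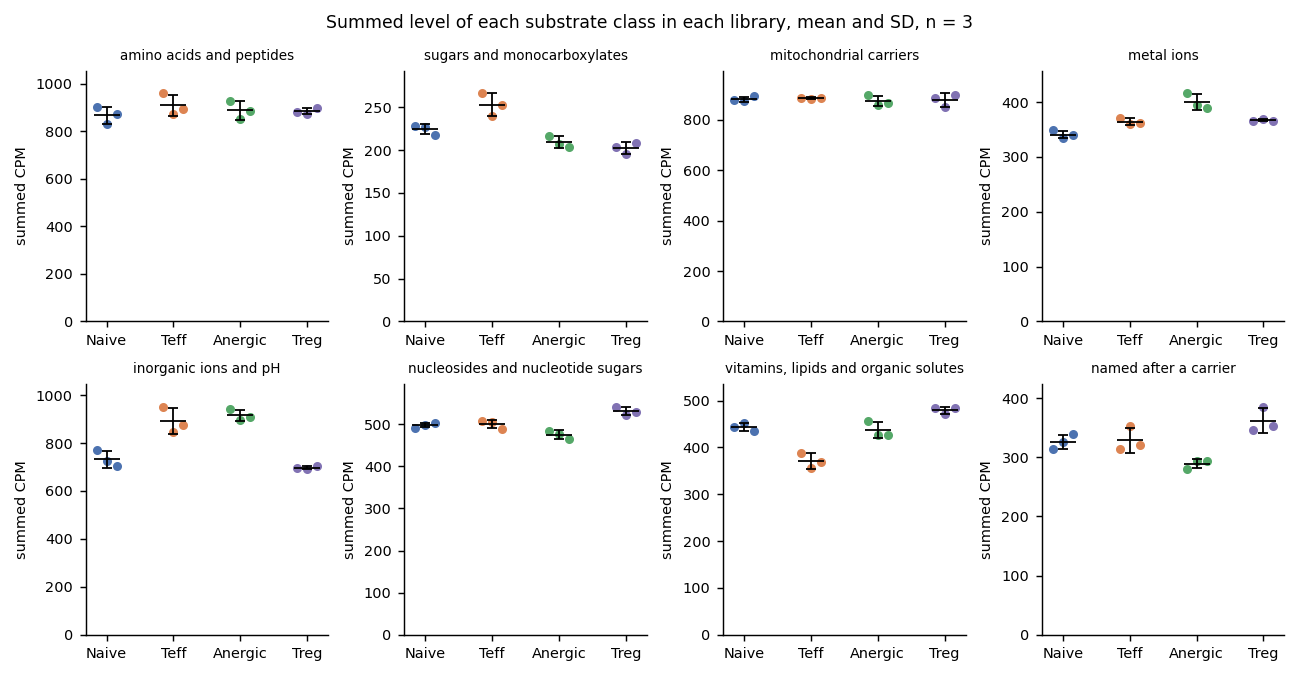
Summed CPM of each substrate class in each library (points), with mean and SD (bars, n = 3), for Naive, Teff, Anergic and Treg. The 37 mitochondrial carriers hold nearly equal sums in the 4 subsets. The sum of the 21 inorganic ion carriers is higher in every Teff and Anergic library than in every Naive and Treg library. Abundant members weigh most in such a sum. Of these, Slc9a9 follows that pattern, whereas Slc12a7 is highest in Naive.

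Promoter stretches are shown for 4 members whose levels differed between subsets and whose RefSeq promoter window (250 bases before to 50 after a start, GRCm38.p6) holds 1 of 2 short motifs, marked in capitals. TGANTCA takes in the core TGACTCA or TGAGTCA bound by AP-1 proteins, the family that includes BATF. It also matches TGAATCA and TGATTCA, which are not that core, and the shares below count all of these. CACGTG is the E box read by MYC and by TFEB and TFE3. Each pattern reads the same on both strands. TGANTCA stood in 7.81% of 32851 windows of all genes and in 5.33% of the members' 150 windows, and CACGTG in 7.15% and 16.7%. The windows of all genes were not limited to genes tested here, so these shares are not matched for expression. Windows were at hand for 118 members. A match describes the letters only and is not a binding site. The stretches of Slc37a2 and Slc20a1 are kept short because they overlap annotated exons, and that of Slc12a7 lies inside the annotated gene, which starts at position 73733094.
Slc37a2, chr9:37255828-37255856, minus strand: cccgcagatcaTGAGTCAgcgcggtggtc
Slc9a9, chr9:94669736-94669862, plus strand: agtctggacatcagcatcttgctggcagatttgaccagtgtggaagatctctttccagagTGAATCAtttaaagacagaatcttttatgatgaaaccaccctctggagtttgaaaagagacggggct
Slc20a1, chr2:129198587-129198614, plus strand: ccagccagtccCACGTGgaccagctcct
Slc12a7, chr13:73763599-73763696, plus strand: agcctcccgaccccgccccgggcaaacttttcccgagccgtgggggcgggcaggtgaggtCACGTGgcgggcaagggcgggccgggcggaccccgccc

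Of the 19 amino acid and peptide carriers, 13 were called among the subsets, where 56.0% of all tested genes are called. Slc7a5, the light chain of LAT1 that exchanges leucine and other large neutral amino acids for glutamine, was high in Naive and Treg cells and low in Teff and Anergic cells. It measured 34, 37 and 43.9 CPM in Naive, 16.8, 15.7 and 17.2 in Teff, 16.8, 17.8 and 15.9 in Anergic and 34.2, 29.7 and 36.3 in Treg libraries. No Teff or Anergic library reached any Naive or Treg library. Anergic cells were 1.98-fold below Treg (log2 change -0.99 ± 0.113 SE, adjusted p = 1.98e-07) and 2.26-fold below Naive (log2 change -1.18 ± 0.113 SE, adjusted p = 5.73e-09). Teff were 2.31-fold below Naive (log2 change -1.21 ± 0.113 SE, adjusted p = 6.54e-09). Anergic against Teff did not pass (log2 change 0.03 ± 0.123 SE, adjusted p = 0.902), nor did Treg against Naive (log2 change -0.19 ± 0.104 SE, adjusted p = 0.171). Its heavy chain partner Slc3a2 ranged less, at 73.5 ± 4.52 CPM in Naive, 87.9 ± 0.0911 in Teff, 74.7 ± 7.04 in Anergic and 75.9 ± 6.21 in Treg. Per kilobase, the ratio of Slc3a2 to Slc7a5 was 2.03 ± 0.156 in Naive, 5.59 ± 0.265 in Teff, 4.69 ± 0.699 in Anergic and 2.40 ± 0.230 in Treg (SD, n = 3), a quantity chosen after its parts were seen.

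The sodium-coupled neutral amino acid carriers Slc38a1 and Slc38a2 take up glutamine and alanine and went opposite ways in Anergic cells against Naive and Treg. Slc38a1 measured 137, 125 and 126 CPM in Naive, 201, 185 and 184 in Teff, 191, 186 and 194 in Anergic and 116, 114 and 111 in Treg libraries. Teff and Anergic libraries were the high ones and did not overlap Naive or Treg. Anergic cells were 1.67-fold above Treg (log2 change 0.74 ± 0.063 SE, adjusted p = 1.45e-09) and 1.47-fold above Naive (log2 change 0.55 ± 0.0631 SE, adjusted p = 1.02e-07). Slc38a2 measured 188, 147 and 164 CPM in Naive, 146, 131 and 125 in Teff, 112, 89.2 and 78.9 in Anergic and 139.8, 129 and 122 in Treg libraries. Anergic cells were 1.78-fold below Naive (log2 change -0.83 ± 0.102 SE, adjusted p = 3.53e-07), 1.43-fold below Teff (log2 change -0.52 ± 0.103 SE, adjusted p = 0.000407) and 1.39-fold below Treg (log2 change -0.48 ± 0.102 SE, adjusted p = 0.00074). The ratio of Slc38a1 to Slc38a2 per kilobase was 1.07 ± 0.195 in Anergic, 0.728 ± 0.0240 in Teff, 0.448 ± 0.0224 in Treg and 0.402 ± 0.0317 in Naive (SD, n = 3), again chosen after seeing the values. Slc1a5 (ASCT2), an exchanger of glutamine and other neutral amino acids, stood at 53.6 ± 4.43 CPM in Naive, 59.5 ± 2.5 in Teff, 85.3 ± 8.64 in Anergic and 67.7 ± 3.06 in Treg. Its Anergic libraries lay above all others, 1.43-fold over Teff (log2 change 0.52 ± 0.0799 SE, adjusted p = 1.91e-05). Slc43a2 (LAT4), a facilitated carrier of branched-chain and aromatic amino acids, was highest in Treg at 88.7 ± 4.04 CPM against 64.1 ± 2.37 in Anergic (log2 change -0.47 ± 0.0738 SE, adjusted p = 2e-05). The taurine carrier Slc6a6 was likewise highest in Treg, at 87.4 ± 3.17 CPM, and 1.48-fold lower in Anergic cells (log2 change -0.56 ± 0.0717 SE, adjusted p = 1.15e-06). Slc7a1 (CAT1), the carrier of arginine and lysine, was highest in Naive cells at 80.3 ± 3.25 CPM and 1.42-fold lower in Treg (log2 change -0.5 ± 0.0811 SE, adjusted p = 2.63e-05). Slc36a4, an amino acid carrier, rose from 7.24 ± 1.6 CPM in Naive to 18.7 ± 1.76 in Anergic cells (log2 change 1.36 ± 0.16 SE, adjusted p = 1.53e-07). Slc43a1 (LAT3), a relative of Slc43a2 named after its values were seen, stood at 0.183 ± 0.0807 CPM in Naive, 2.5 ± 0.642 in Teff, 3.41 ± 0.62 in Anergic and 4.01 ± 1.41 in Treg. Slc36a1, a lysosomal proton-coupled amino acid carrier, was lower in Treg than in Teff (log2 change -0.76 ± 0.134 SE, adjusted p = 9.02e-05). Slc7a6, a light chain for cationic and neutral exchange, and the lysosomal Slc15a4 were not called in any comparison.

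The proton-coupled peptide carrier Slc15a2 (PEPT2), named after its values were seen, differed between replicate numbers. It measured 25.9, 7.3 and 25.4 CPM in Naive, 25.9, 4.45 and 24.7 in Teff, 31.9, 6.44 and 17 in Anergic and 33.6, 9.99 and 41.9 in Treg libraries. Replicate 2 was the lowest library in all 4 subsets, at 4.45 to 9.99 CPM against 17 to 41.9 CPM in the other libraries. No comparison between subsets passed, and Treg against Teff gave log2 change 0.64 ± 0.484 SE, adjusted p = 0.36. With the replicate number as a block the adjusted p was 0.00113 for Treg against Teff, 0.00198 for Anergic against Treg and 0.00771 for Treg against Naive. Without a low-count filter or a block it was 4.59e-06, 3.89e-06 and 4.11e-05 in the same order, on the same counts. Those values come from the fit and do not reflect less spread among the libraries.

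**Figure D4:**
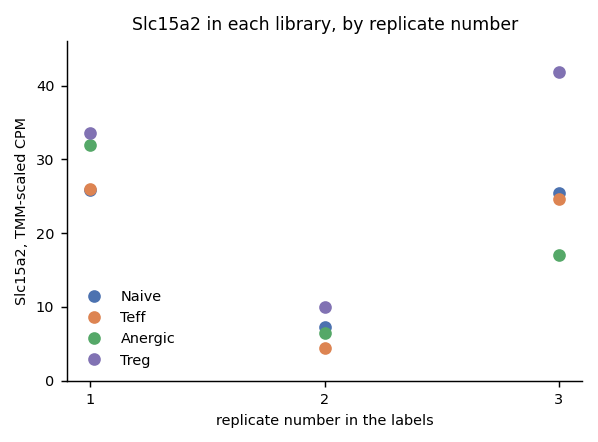
Slc15a2 level (TMM-scaled CPM, vertical axis) in each of the 12 libraries by the replicate number in the labels (horizontal axis), with 1 colour per subset. The replicate 2 libraries of all 4 subsets lie below 10 CPM and all others at 17 CPM or more.

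Among 14 sugar and monocarboxylate carriers 10 were called among the subsets, beside 56.0% of all tested genes. Members of the Slc16 family of monocarboxylate carriers differed in opposite directions. Slc16a5 measured 35.6, 37.5 and 36 CPM in Naive, 8.56, 9.65 and 9.54 in Teff, 1.53, 4.57 and 4.52 in Anergic and 3.23, 3.54 and 1.88 in Treg libraries. Every Naive library was above every other library. Anergic cells were 10.3-fold lower (log2 change -3.37 ± 0.214 SE, adjusted p = 3.64e-12), Treg 12.6-fold lower (log2 change -3.65 ± 0.219 SE, adjusted p = 2.01e-12) and Teff 3.93-fold lower (log2 change -1.98 ± 0.185 SE, adjusted p = 6.2e-09). Slc16a6 measured 10.9, 13.7 and 12.7 CPM in Naive, 37.7, 39.8 and 34.1 in Teff, 9.51, 7.61 and 10.4 in Anergic and 17.9, 16.3 and 17 in Treg libraries. Teff stood above all other libraries, 4.07-fold above Anergic (log2 change -2.03 ± 0.128 SE, adjusted p = 9.41e-12) and 2.98-fold above Naive (log2 change 1.58 ± 0.124 SE, adjusted p = 2.95e-10). An exon share of 22.5% of Slc16a6 overlaps genes on the opposite strand, so its counts are uncertain unless the counting used strand. Slc16a10, a carrier of aromatic amino acids, fell to 2.28 ± 1.03 CPM in Treg from 9.52 ± 0.336 in Naive (log2 change -2.07 ± 0.243 SE, adjusted p = 2.44e-07). Slc16a1 (MCT1), which carries lactate and pyruvate, was not called in any comparison and stood at 19 ± 1.32 CPM in Naive, 21.8 ± 3.05 in Teff, 20.2 ± 3.62 in Anergic and 18.8 ± 0.4 in Treg. The lactate exporter Slc16a3 (MCT4) was low, at 1.32 ± 0.196 CPM in Naive, 3.31 ± 1.11 in Teff, 3.44 ± 0.999 in Anergic and 6.36 ± 0.613 in Treg.

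Slc37a2, a sugar phosphate exchanger of the endoplasmic reticulum, led the rises in Anergic cells against Teff among members reaching 10 CPM. It measured 3.3, 3.09 and 3.33 CPM in Naive, 2.31, 1.98 and 2.42 in Teff, 12.7, 9.02 and 10.6 in Anergic and 3.33, 3.54 and 3.64 in Treg libraries. The Anergic libraries lay above all others. They were 4.79-fold above Teff (log2 change 2.26 ± 0.226 SE, adjusted p = 2.96e-08), 3.07-fold above Treg (log2 change 1.62 ± 0.209 SE, adjusted p = 1.38e-06) and 3.32-fold above Naive (log2 change 1.73 ± 0.218 SE, adjusted p = 4.75e-07). Its promoter stretch above holds TGAGTCA. In GRCm38 the gene spans positions 37227585 to 37255738 of chromosome 9. Slc45a4 was lowest in Naive, at 14.8 ± 2.99 CPM. It rose to 42.9 ± 5.36 in Anergic (log2 change 1.53 ± 0.126 SE, adjusted p = 3.63e-10), 35.7 ± 0.915 in Treg (log2 change 1.26 ± 0.127 SE, adjusted p = 2.04e-08) and 34.9 ± 3.62 in Teff (log2 change 1.23 ± 0.128 SE, adjusted p = 3.51e-08). Slc37a1, a relative of Slc37a2, went the other way and was lower in Anergic cells than in Naive (log2 change -0.55 ± 0.117 SE, adjusted p = 0.000449). The intracellular glucose transporter Slc2a8 (GLUT8) was low, at 1.19 ± 0.686 CPM in Naive, 5.78 ± 1.01 in Teff, 3.66 ± 1.71 in Anergic and 2.35 ± 0.0985 in Treg.

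**Figure D5:**
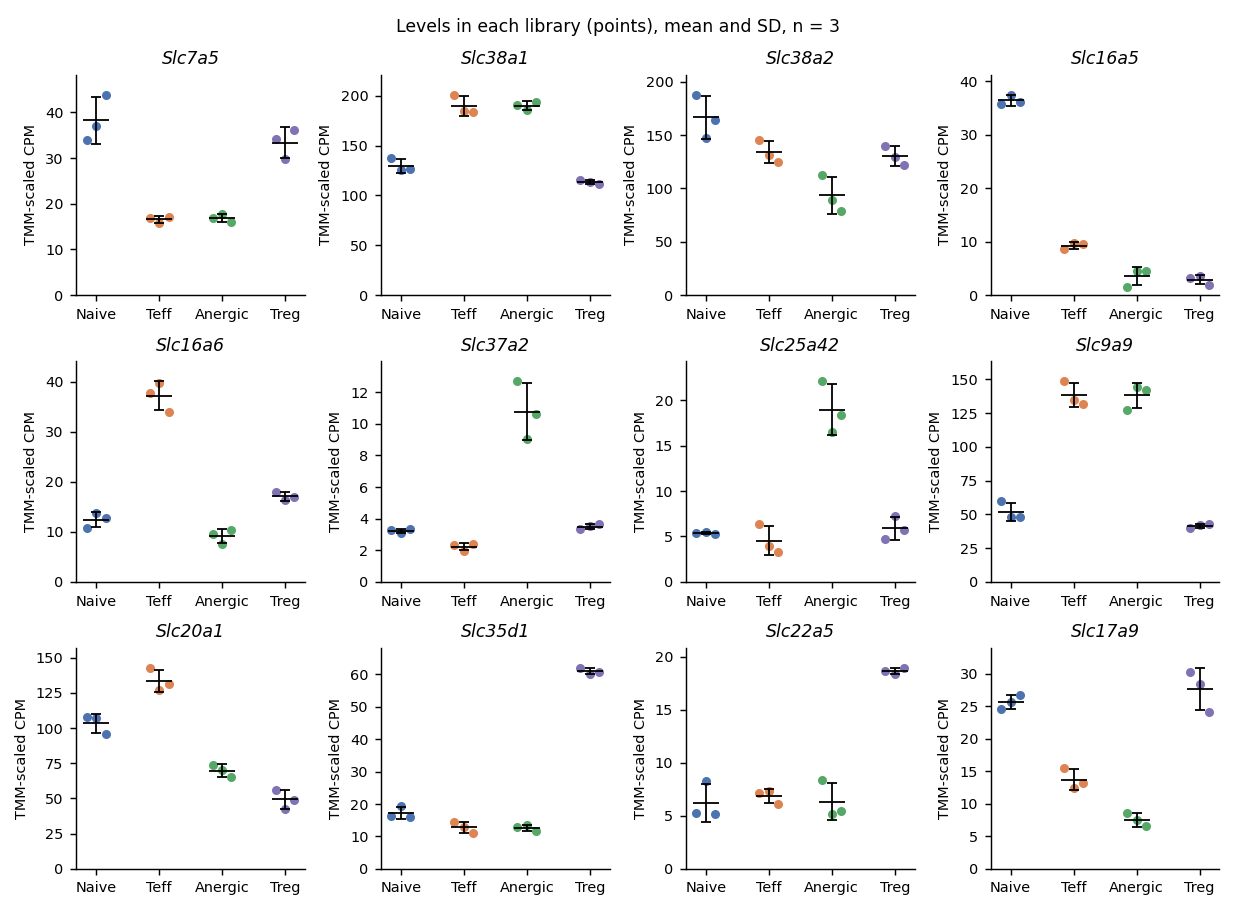
TMM-scaled CPM of 12 members in each library (points), with mean and SD (bars, n = 3), by subset. Slc7a5 and Slc17a9 are low in Teff and Anergic libraries, Slc9a9 is high in both, Slc37a2 and Slc25a42 are high in Anergic, and Slc35d1 and Slc22a5 in Treg.

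Of the 37 mitochondrial carriers 23 were called among the subsets, beside 56.0% of all tested genes. Slc25a42, the carrier of coenzyme A into mitochondria, measured 5.37, 5.44 and 5.3 CPM in Naive, 6.36, 3.96 and 3.31 in Teff, 22.1, 16.5 and 18.3 in Anergic and 4.74, 7.21 and 5.75 in Treg libraries. Anergic libraries did not overlap any other subset. They were 4.14-fold above Teff (log2 change 2.05 ± 0.205 SE, adjusted p = 2.99e-08), 3.24-fold above Treg (log2 change 1.7 ± 0.196 SE, adjusted p = 2.51e-07) and 3.53-fold above Naive (log2 change 1.82 ± 0.204 SE, adjusted p = 7.9e-08). Slc25a24, Slc25a23 and Slc25a25 are calcium-regulated carriers that exchange ATP-magnesium for phosphate. Slc25a24 was high in Teff and Anergic cells, at 9.96 ± 1.26 CPM in Naive, 37.6 ± 2.4 in Teff, 41.5 ± 1.47 in Anergic and 19.3 ± 3.1 in Treg. Anergic cells exceeded Naive 4.19-fold (log2 change 2.07 ± 0.124 SE, adjusted p = 1.29e-12) and Treg 2.15-fold (log2 change 1.11 ± 0.109 SE, adjusted p = 1.94e-08). Slc25a23 was highest in Naive cells at 37.2 ± 1.45 CPM and lower in Anergic (log2 change -1.28 ± 0.124 SE, adjusted p = 6.35e-09), Treg (log2 change -0.9 ± 0.119 SE, adjusted p = 1.47e-06) and Teff (log2 change -0.75 ± 0.118 SE, adjusted p = 1.75e-05). Slc25a25 had its lowest libraries in Anergic cells, at 13.7 ± 1.05 CPM. They were 1.89-fold below Treg (log2 change -0.92 ± 0.121 SE, adjusted p = 1.82e-06) and 1.56-fold below Teff (log2 change -0.64 ± 0.125 SE, adjusted p = 0.000331).

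The adenine nucleotide carriers Slc25a4 (ANT1) and Slc25a5 (ANT2), which exchange ADP for ATP across the inner membrane, stood in a different ratio in Anergic cells. Slc25a5 measured 134, 126 and 135 CPM in Naive, 118, 137 and 130.4 in Teff, 92.1, 109.8 and 114 in Anergic and 135, 141 and 138 in Treg libraries, with Anergic the lowest subset. Anergic cells were 1.31-fold below Treg (log2 change -0.39 ± 0.0752 SE, adjusted p = 0.000245), 1.25-fold below Naive (log2 change -0.32 ± 0.076 SE, adjusted p = 0.0012) and 1.22-fold below Teff (log2 change -0.29 ± 0.0757 SE, adjusted p = 0.00566). Slc25a4 stood at 51.3 ± 6.65 CPM in Naive, 54.7 ± 5.35 in Teff, 69.3 ± 2.31 in Anergic and 61.4 ± 0.847 in Treg, above Naive in Anergic cells (log2 change 0.43 ± 0.0869 SE, adjusted p = 0.00023). The sum of both was 175 ± 11.9 CPM in Anergic, 183 ± 7.5 in Naive, 183 ± 14.6 in Teff and 199 ± 2.59 in Treg. Per kilobase, Slc25a5 over Slc25a4 was 2.18 ± 0.250 in Anergic against 3.71 ± 0.568, 3.37 ± 0.105 and 3.21 ± 0.105 in Naive, Teff and Treg (SD, n = 3), a ratio chosen after seeing the values. Slc25a13, an aspartate and glutamate exchanger of the malate-aspartate shuttle, rose from 1.06 ± 0.276 CPM in Naive to 6.84 ± 0.831 in Anergic (log2 change 2.69 ± 0.293 SE, adjusted p = 4.87e-08). Slc25a27 was lower in Anergic cells than in Treg (log2 change -1.51 ± 0.305 SE, adjusted p = 0.000382) and Naive (log2 change -1.69 ± 0.306 SE, adjusted p = 7e-05). Slc25a53 was highest in Teff, at 8.95 ± 1.11 CPM against 4.07 ± 1 in Anergic (log2 change -1.13 ± 0.225 SE, adjusted p = 0.000437). Slc25a33, a pyrimidine nucleotide carrier, was higher in Teff than in Naive (log2 change 1.52 ± 0.245 SE, adjusted p = 2.49e-05). The dicarboxylate carrier Slc25a10 was higher in Anergic than in Treg (log2 change 1.16 ± 0.282 SE, adjusted p = 0.00242). Slc25a20, which exchanges acylcarnitine for carnitine, stood at 9.03 ± 0.843 CPM in Naive, 13.3 ± 1.53 in Teff, 12.3 ± 0.864 in Anergic and 13 ± 2.66 in Treg. The citrate carrier Slc25a1 was 1.43-fold higher in Teff than in Naive (log2 change 0.52 ± 0.145 SE, adjusted p = 0.00733). The iron importer Slc25a37 (mitoferrin 1) was lower in Anergic cells than in Naive (log2 change -0.64 ± 0.176 SE, adjusted p = 0.00422).

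Of 20 metal ion carriers 12 were called among the subsets, beside 56.0% of all tested genes. Those of the ZIP family (Slc39) bring zinc into the cytosol and those of the ZnT family (Slc30) take it out. Slc39a4, a zinc importer of the plasma membrane, measured 1.93, 1.48 and 1.67 CPM in Naive, 11.1, 15.7 and 13.5 in Teff, 23.5, 19.2 and 19.1 in Anergic and 7.36, 7.84 and 8.33 in Treg libraries. Naive libraries were the lowest, 12.1-fold below Anergic (log2 change 3.6 ± 0.207 SE, adjusted p = 5.47e-13). Anergic cells exceeded Treg 2.63-fold (log2 change 1.4 ± 0.154 SE, adjusted p = 1.18e-07) and Teff 1.54-fold (log2 change 0.62 ± 0.145 SE, adjusted p = 0.00216). Slc39a6, another zinc importer, was highest in Teff at 40.7 ± 2.78 CPM and 1.77-fold lower in Treg (log2 change -0.82 ± 0.104 SE, adjusted p = 9.07e-07). Slc39a13 stood at 6.08 ± 1.56 CPM in Naive, 7.36 ± 0.175 in Teff, 11.6 ± 0.982 in Anergic and 13.3 ± 0.622 in Treg, higher in Anergic than in Teff cells (log2 change 0.65 ± 0.167 SE, adjusted p = 0.00467). Slc30a9 was lower in Anergic cells than in Treg (log2 change -0.39 ± 0.0962 SE, adjusted p = 0.00291). The zinc importer Slc39a10 stood at 26.1 ± 1.2 CPM in Naive, 20.9 ± 0.827 in Teff, 24.3 ± 3.86 in Anergic and 26.3 ± 0.633 in Treg. The magnesium transporter Slc41a1 measured 26.7, 27 and 26.5 CPM in Naive, 28.3, 27.1 and 27 in Teff, 80.04, 60.7 and 57.8 in Anergic and 44.1, 40.6 and 45.4 in Treg libraries. Anergic libraries stood above all others, 2.41-fold over Teff (log2 change 1.27 ± 0.102 SE, adjusted p = 7.09e-10) and 1.53-fold over Treg (log2 change 0.61 ± 0.0967 SE, adjusted p = 2.19e-05). Slc11a2 (DMT1), the importer of ferrous iron, was highest in Teff at 24.5 ± 2.89 CPM. It was lower in Anergic cells (log2 change -0.68 ± 0.129 SE, adjusted p = 0.000256 for Anergic against Teff), Treg (log2 change -0.72 ± 0.129 SE, adjusted p = 0.000105 for Treg against Teff) and Naive cells (log2 change 0.69 ± 0.131 SE, adjusted p = 0.000188 for Teff against Naive). Tfrc, the transferrin receptor that supplies it with iron, was highest in Treg at 33.9 ± 0.555 CPM against 19.6 ± 0.234 in Teff (log2 change 0.79 ± 0.0954 SE, adjusted p = 4.37e-07).

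Carriers of inorganic ions and pH numbered 21, of which 13 were called among the subsets, beside 56.0% of all tested genes. Exchangers of sodium or potassium for protons in endosomes and the Golgi included members that differed between subsets. Slc9a9 (NHE9) of endosomes measured 59.8, 48.1 and 47.9 CPM in Naive, 148, 135 and 132 in Teff, 127, 145 and 142 in Anergic and 39.6, 42 and 42.6 in Treg libraries. Teff and Anergic libraries lay above every Naive and Treg library. Anergic cells were 3.34-fold above Treg (log2 change 1.74 ± 0.0836 SE, adjusted p = 5.95e-14) and 2.66-fold above Naive (log2 change 1.41 ± 0.0831 SE, adjusted p = 8.96e-13). Anergic against Teff did not pass (log2 change -0.00 ± 0.0761 SE, adjusted p = 0.977). Its promoter stretch holds TGAATCA, which matches TGANTCA but is not the AP-1 core. Slc9a7 (NHE7) of the trans-Golgi network measured 3.58, 2.35 and 2.12 CPM in Naive, 15.3, 16.9 and 15.4 in Teff, 28.9, 30.5 and 28 in Anergic and 13.5, 14 and 15.7 in Treg libraries. It was lowest in Naive and highest in Anergic libraries. The latter were 10.8-fold above Naive (log2 change 3.43 ± 0.166 SE, adjusted p = 2e-14), 1.84-fold above Teff (log2 change 0.88 ± 0.122 SE, adjusted p = 4.79e-06) and 2.02-fold above Treg (log2 change 1.02 ± 0.123 SE, adjusted p = 4.92e-07). Slc9b2 was low, at 8.59 ± 2.2 CPM in Anergic and 0.815 ± 0.521 in Teff, with 213 of its 324 counts in Anergic, and no test is given.

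Cation-chloride cotransporters set cell chloride and volume, with Slc12a2 (NKCC1) bringing ions in and Slc12a7 (KCC4) letting them out. Slc12a7 measured 243, 215 and 218 CPM in Naive, 164, 152 and 157 in Teff, 108, 116 and 120.1 in Anergic and 112, 111 and 107 in Treg libraries. Naive libraries were the highest, then Teff, and both Anergic (log2 change -0.97 ± 0.0661 SE, adjusted p = 1.24e-11) and Treg (log2 change -1.03 ± 0.0661 SE, adjusted p = 6.5e-12) were lower than Naive. Slc12a2 went the other way, at 14.2, 16.3 and 14.1 CPM in Naive, 16.1, 15.3 and 17.6 in Teff, 32.2, 31.7 and 32.3 in Anergic and 26.8, 31.4 and 29.8 in Treg libraries, higher in Anergic cells than in Naive (log2 change 1.1 ± 0.108 SE, adjusted p = 8.46e-09) and Teff (log2 change 0.97 ± 0.105 SE, adjusted p = 1e-07). The ratio of Slc12a7 to Slc12a2 per kilobase was 13.2 ± 1.71 in Naive, 8.35 ± 0.564 in Teff, 3.25 ± 0.303 in Treg and 3.09 ± 0.163 in Anergic (SD, n = 3), chosen after seeing the values. Stk39, a kinase that acts on these cotransporters, was at 30.4 ± 5.39 CPM in Naive, 80.8 ± 3.97 in Teff, 98 ± 6.45 in Anergic and 43.6 ± 5.28 in Treg, higher in Anergic than in Naive (log2 change 1.68 ± 0.102 SE, adjusted p = 1.4e-12).

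Slc20a1 (PiT1), a sodium-coupled phosphate importer, measured 108, 107 and 95.7 CPM in Naive, 143, 127 and 132 in Teff, 73.9, 70.4 and 65.2 in Anergic and 56.3, 42.9 and 48.8 in Treg libraries. The 4 subsets did not overlap, in the order Teff, Naive, Anergic and Treg. Anergic cells were 1.91-fold below Teff (log2 change -0.94 ± 0.0822 SE, adjusted p = 3.06e-09) and 1.41-fold above Treg (log2 change 0.5 ± 0.0875 SE, adjusted p = 8.21e-05). The sulfate carrier Slc26a2 measured 43.1, 39 and 41.5 CPM in Naive, 49.99, 44 and 47.8 in Teff, 112, 90.9 and 101 in Anergic and 73.4, 66.4 and 69.3 in Treg libraries. It was 2.15-fold higher in Anergic than in Teff (log2 change 1.1 ± 0.0808 SE, adjusted p = 1.32e-10) and 1.45-fold higher than in Treg (log2 change 0.54 ± 0.0774 SE, adjusted p = 5.98e-06). Slc26a11, a second anion carrier of that family, led the rises of Anergic cells over Treg, at 9.42 ± 1.31 CPM in Naive, 16.4 ± 0.857 in Teff, 27.7 ± 5.28 in Anergic and 4.83 ± 0.978 in Treg (log2 change 2.53 ± 0.17 SE, adjusted p = 2.3e-11). The bicarbonate cotransporter Slc4a7 stood at 30.4 ± 3.6 CPM in Naive, 92.9 ± 16.2 in Teff, 92.7 ± 11.7 in Anergic and 82.6 ± 5.9 in Treg, and Slc4a8, a second sodium bicarbonate carrier, at 5.14 ± 0.808 CPM in Naive, 12.6 ± 0.301 in Teff, 21.2 ± 2.72 in Anergic and 15.2 ± 3.04 in Treg. Both were higher in Anergic cells than in Naive, Slc4a7 with log2 change 1.62 ± 0.117 SE, adjusted p = 4.18e-11 and Slc4a8 with log2 change 2.03 ± 0.175 SE, adjusted p = 9.32e-10. Slc24a3, an exchanger of sodium for calcium and potassium, had 0 counts in the Naive libraries and 227 in the Anergic ones, at least 67.6-fold higher against a floor of 3 counts over the 3 Naive libraries. Teff libraries held 12 and Treg 44. Its sum reaches 200 only through Anergic, so no test is given.

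Among 22 carriers of nucleosides and nucleotide sugars 12 were called among the subsets, near the 56.0% of all tested genes. Slc35d1, which brings UDP-glucuronic acid and UDP-N-acetylgalactosamine into the endoplasmic reticulum, measured 16.4, 19.3 and 15.9 CPM in Naive, 14.5, 12.9 and 11.1 in Teff, 12.8, 13.5 and 11.7 in Anergic and 61.9, 60.05 and 60.9 in Treg libraries. Treg libraries lay above all others, 4.75-fold above Teff (log2 change 2.25 ± 0.106 SE, adjusted p = 3.13e-14) and 3.53-fold above Naive (log2 change 1.82 ± 0.104 SE, adjusted p = 8.32e-13). Anergic cells were 4.8-fold below Treg (log2 change -2.26 ± 0.107 SE, adjusted p = 4.26e-14). It lies on chromosome 4 at positions 103170649 to 103215164 of GRCm38. Slc35g1 was also highest in Treg, at 17.3 ± 3.24 CPM against 8.97 ± 0.898 in Teff (log2 change 0.95 ± 0.163 SE, adjusted p = 5.95e-05). Slc28a2 (CNT2), a sodium-coupled importer of purine nucleosides, stood at 69.4 ± 2.59 CPM in Naive, 69.7 ± 4.33 in Teff, 55.1 ± 5.44 in Anergic and 69.5 ± 2.07 in Treg. Anergic libraries lay below all others, against Naive (log2 change -0.33 ± 0.0774 SE, adjusted p = 0.00108), Teff (log2 change -0.34 ± 0.0766 SE, adjusted p = 0.0017) and Treg (log2 change -0.33 ± 0.0762 SE, adjusted p = 0.00145). Slc35f2 was higher in Teff than in Anergic (log2 change -0.72 ± 0.18 SE, adjusted p = 0.00389 for Anergic against Teff) and higher in Treg than in Naive (log2 change 0.73 ± 0.181 SE, adjusted p = 0.00286). Slc35b2, which carries the sulfate donor PAPS into the Golgi, was higher in Anergic cells than in Naive (log2 change 0.51 ± 0.151 SE, adjusted p = 0.0072). Slc35b3, with the same substrate, was lower in Teff than in Naive (log2 change -0.37 ± 0.0876 SE, adjusted p = 0.00157). Slc35c2 rose in Teff over Naive (log2 change 0.58 ± 0.133 SE, adjusted p = 0.00126), Slc35e1 was lower in Treg than in Teff (log2 change -0.5 ± 0.0838 SE, adjusted p = 4.85e-05) and Slc35e2 lower in Treg than in Naive (log2 change -0.48 ± 0.109 SE, adjusted p = 0.00117). Slc35b1 was not called in any comparison. The GDP-fucose carrier of the Golgi, Slc35c1, was highest in Naive at 52.6 ± 3.38 CPM and lower in Anergic cells (log2 change -0.44 ± 0.0972 SE, adjusted p = 0.000613).

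Of 20 carriers of vitamins, lipids and other organic solutes 13 were called among the subsets, beside 56.0% of all tested genes. Slc22a5 (OCTN2), the importer of carnitine, measured 5.23, 8.28 and 5.15 CPM in Naive, 7.17, 7.3 and 6.11 in Teff, 8.33, 5.15 and 5.45 in Anergic and 18.7, 18.3 and 18.9 in Treg libraries. Treg libraries stood above all others, 2.71-fold over Teff (log2 change 1.44 ± 0.184 SE, adjusted p = 1.06e-06) and 2.96-fold over Naive (log2 change 1.56 ± 0.189 SE, adjusted p = 4.03e-07). Anergic cells were below Treg (log2 change -1.55 ± 0.186 SE, adjusted p = 4.23e-07). Slc22a15, a related carrier of zwitterions, measured 3.16, 1.24 and 2.12 CPM in Naive, 14.5, 8.16 and 8.65 in Teff, 52.9, 32 and 36.5 in Anergic and 14.1, 14.4 and 14.1 in Treg libraries. Anergic libraries were the highest and Naive the lowest. Anergic cells were 3.86-fold above Teff (log2 change 1.95 ± 0.195 SE, adjusted p = 3.01e-08) and 2.85-fold above Treg (log2 change 1.51 ± 0.186 SE, adjusted p = 6.59e-07). Slc17a9 (VNUT), which loads ATP into vesicles, measured 24.6, 25.7 and 26.8 CPM in Naive, 15.5, 12.4 and 13.2 in Teff, 8.57, 7.5 and 6.51 in Anergic and 30.3, 28.4 and 24 in Treg libraries. Naive and Treg libraries were high, Teff lower and Anergic lowest. The last were 3.66-fold below Treg (log2 change -1.87 ± 0.137 SE, adjusted p = 1.09e-10) and 1.82-fold below Teff (log2 change -0.86 ± 0.149 SE, adjusted p = 8.47e-05). Slc27a6, a fatty acid transport protein, had 321 counts in Teff libraries and 2 in Naive, a ratio of 143 after scaling (exact 95% interval 39.4 to 1189, counting error only). Anergic libraries held 20 and Treg 6. Its sum reaches 200 only through Teff, so no test is given. Its Teff level of 13 ± 1.63 CPM stands beside the NK and innate-like marker sum, which was also highest in Teff, and the part of those markers in it was not tested.

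Slc5a3 (SMIT1), a sodium-coupled importer of the osmolyte myo-inositol, measured 26.1, 22.3 and 22.6 CPM in Naive, 32.9, 24.5 and 29.3 in Teff, 63, 67 and 60.3 in Anergic and 38.6, 47.4 and 40.01 in Treg libraries. Anergic libraries lay above all others, 2.2-fold over Teff (log2 change 1.13 ± 0.102 SE, adjusted p = 4.36e-09) and 1.52-fold over Treg (log2 change 0.6 ± 0.0969 SE, adjusted p = 2.89e-05). Nfat5, the osmotic stress factor known to act on Slc5a3 and Slc6a6, was at 97.5 ± 8.93 CPM in Naive, 114 ± 8.56 in Teff, 179 ± 6.42 in Anergic and 155 ± 1.43 in Treg, higher in Anergic than in Teff (log2 change 0.65 ± 0.0704 SE, adjusted p = 1.1e-07), whereas Slc6a6 had its lowest mean, 59.3 ± 3.29 CPM, in Anergic cells. The choline transporter-like proteins Slc44a1 and Slc44a2 had their lowest means in Teff. Slc44a2 stood at 224 ± 7.91 CPM in Naive, 144 ± 2.21 in Teff, 149.8 ± 1.55 in Anergic and 192 ± 9.5 in Treg, with Teff below Naive (log2 change -0.64 ± 0.0608 SE, adjusted p = 8.46e-09) and Treg above Teff (log2 change 0.42 ± 0.0607 SE, adjusted p = 7.49e-06). Slc44a1 stood at 20.8 ± 3.93 CPM in Naive, 11.4 ± 0.74 in Teff, 18.1 ± 2.73 in Anergic and 22 ± 3.23 in Treg, with Teff below Anergic (Anergic against Teff log2 change 0.66 ± 0.156 SE, adjusted p = 0.00226). The reduced folate carrier Slc19a1 was highest in Treg at 15.8 ± 0.445 CPM, 1.68-fold above Teff (log2 change 0.75 ± 0.146 SE, adjusted p = 0.000301). Slc46a3, a lysosomal carrier, was higher in Teff than in Naive (log2 change 0.94 ± 0.238 SE, adjusted p = 0.00314). The fatty acid transport protein Slc27a1 stood at 3.35 ± 0.412 CPM in Naive, 4.75 ± 1.75 in Teff, 5.77 ± 0.536 in Anergic and 5.66 ± 0.978 in Treg, and the thiamine carrier Slc19a2 stood at 2.24 ± 0.122 CPM in Naive, 2.82 ± 0.658 in Teff, 2.66 ± 0.751 in Anergic and 2.22 ± 0.199 in Treg. Of the members named after a carrier, Slc9a3r1, a scaffold that ties membrane proteins to the cortex, was at 235 ± 13.4 CPM in Naive, 247 ± 13.7 in Teff, 210.2 ± 5.95 in Anergic and 287 ± 18.8 in Treg and lower in Anergic than in Treg cells (log2 change -0.45 ± 0.0669 SE, adjusted p = 1.01e-05).

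Genes that work with these carriers were taken from lists, whose medians stand beside one of 0.00 over all tested genes for Anergic against Teff and Treg. Of all tested genes 26.6% are called against Teff, 31.0% against Treg and 46.2% against Naive. Of 7 tested transporter partners all 7 were called between Anergic and Treg, 3 higher and 4 lower (median log2 fold change -0.18), and 3 between Anergic and Teff (median -0.03). Between Anergic and Naive 2 of the 7 were called, 1 higher and 1 lower. Emb, a chaperone that takes Slc16 carriers to the membrane, was at 209 ± 7.65 CPM in Naive, 159 ± 4.97 in Teff, 116 ± 14 in Anergic and 80.5 ± 0.191 in Treg, lower in Anergic than in Naive (log2 change -0.86 ± 0.0727 SE, adjusted p = 6.93e-10) and Teff (log2 change -0.46 ± 0.0729 SE, adjusted p = 2.69e-05). It was above Treg (log2 change 0.52 ± 0.0753 SE, adjusted p = 6.67e-06). Bsg, the other such chaperone, was highest in Treg at 86.9 ± 6.36 CPM against 63.8 ± 5.28 in Naive (log2 change 0.44 ± 0.0894 SE, adjusted p = 0.000356). Among 26 tested genes of amino acid sensing by mTORC1, 4 were called between Anergic and Teff (2 higher and 2 lower, median 0.02) and 8 between Anergic and Treg (2 higher and 6 lower, median -0.05). Sesn3, one of the sestrins that restrain mTORC1, was higher in Anergic than in Treg (log2 change 0.81 ± 0.0767 SE, adjusted p = 1.06e-08) and Teff (log2 change 0.56 ± 0.0763 SE, adjusted p = 3.13e-06). Its relative Sesn1 was lower in Anergic than in Treg (log2 change -1.65 ± 0.0813 SE, adjusted p = 8.93e-14) and Teff (log2 change -1.0 ± 0.0847 SE, adjusted p = 1.67e-09). The GTPase gene Rragd stood at 15.2 ± 0.447 CPM in Treg and between 1.63 and 1.96 CPM in the other subset means (log2 change 3.21 ± 0.235 SE, adjusted p = 1.02e-10 for Treg against Teff). Of 9 tested targets of the amino acid response, 1 was called between Anergic and Teff (median -0.06) and 3 between Anergic and Treg, all lower (median -0.32).

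Of 14 nutrient and metal response regulators, 8 were called between Anergic and Teff (3 higher and 5 lower, median -0.15) and 8 between Anergic and Treg (5 higher and 3 lower, median 0.00). Hif1a, the factor of the hypoxia response, was at 106 ± 2.32 CPM in Naive, 164 ± 0.894 in Teff, 444 ± 39.99 in Anergic and 249 ± 12.8 in Treg, higher in Anergic than in Teff (log2 change 1.43 ± 0.068 SE, adjusted p = 4.55e-14), Treg (log2 change 0.83 ± 0.0664 SE, adjusted p = 4.86e-10) and Naive (log2 change 2.06 ± 0.0705 SE, adjusted p = 3.18e-17). Myc, whose targets in activated T cells are known to include amino acid carriers, was at 79.8 ± 7.49 CPM in Naive, 41.9 ± 1.18 in Teff, 26.8 ± 5.33 in Anergic and 96.6 ± 6.45 in Treg, lower in Anergic than in Treg (log2 change -1.86 ± 0.102 SE, adjusted p = 6.76e-13) and Naive (log2 change -1.58 ± 0.105 SE, adjusted p = 7.79e-12). Txnip, which holds back glucose uptake, was lower in Anergic than in Naive (log2 change -0.98 ± 0.0684 SE, adjusted p = 1.93e-11) and Treg (log2 change -0.81 ± 0.0682 SE, adjusted p = 1.25e-09). The sterol regulator Srebf2 was lower against Naive (log2 change -0.76 ± 0.0638 SE, adjusted p = 5.2e-10) and Treg (log2 change -0.67 ± 0.0635 SE, adjusted p = 1.05e-08). Among 39 tested carriers outside the Slc names, 14 were called between Anergic and Teff (5 higher and 9 lower, median 0.00) and 22 between Anergic and Naive (12 higher and 10 lower). Over all tested genes 26.6% and 46.2% are called in those comparisons, and 31.0% between Anergic and Treg. Atp2b4, a calcium pump of the plasma membrane, stood at 1.12 ± 0.324 CPM in Naive, 82.9 ± 4.44 in Teff, 116 ± 14.6 in Anergic and 47.6 ± 2.77 in Treg, higher in Anergic than in Teff (log2 change 0.49 ± 0.0816 SE, adjusted p = 5.69e-05). Abcb1a, a drug efflux pump, was at 5.03 ± 0.315 CPM in Naive, 78.1 ± 6.95 in Teff, 50.9 ± 2.57 in Anergic and 37.8 ± 1.22 in Treg. Atp1b1, a subunit of the sodium pump that maintains the gradient used by the sodium-coupled carriers, stood at 96.8 ± 8.96 CPM in Naive, 12.6 ± 1.27 in Teff, 11.9 ± 2.18 in Anergic and 36 ± 5.98 in Treg, lower in Anergic than in Naive (log2 change -3.01 ± 0.127 SE, adjusted p = 1.74e-15).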

How the data were processed

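RNA of 12 sorted mouse CD4 libraries had been made from total RNA with a SMARTer Stranded Pico kit, per the labels. Values are raw read counts per gene, deposited by the authors as 1 table. HISAT2 and featureCounts on GRCm38 are named per the submitters' processing notes, with Trimmomatic, SAMtools and edgeR in the design text. Of the annotation, the strand setting and most tool versions, nothing is given in the sources used here. Members that overlap other genes are therefore uncertain. Samples were grouped by the labels.

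The test was that of edgeR 4.0.16 under R 4.3.3 (quasi-likelihood F tests, TMM, filterByExpr, 4 subset means over 12 libraries, Benjamini-Hochberg over 13393 genes). Standard errors were obtained from the F statistic as |log2 fold change| over the root of F. With totals of 6909035 to 9527897 counts, a test on simulated data for Anergic against Teff, over 12991 genes, found 74.5% of 2-fold and 97.9% of 4-fold changes with 6 false calls. Replicates differed beyond sampling noise (a chi-square of 2.28 to 24.2 per degree of freedom). Pairs of Anergic libraries gave 10.7, 15.9 and 24.2, and pairs within the other subsets 2.28 to 8.10. Since the model shares 1 spread estimate over the 4 subsets, standard errors for Anergic cells may be too small. The simulated data likewise gave every subset the same spread per gene. They therefore cannot show how many false calls a larger Anergic spread would give. Alternatives were DESeq2 1.42.0, limma 3.58.1 (voom), other scalings and filters, a replicate block, pairs of subsets alone, removal of 99 abundant RNA entries and leaving out each library.

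Members and lists were chosen with earlier results of these data known. In each comparison the text names the 6 highest and 6 lowest called members that average 10 CPM or more in whichever subset is higher, without overlapping libraries, 2 in each direction per class at 5 CPM or more where their calls held, a list of carriers known in T cells, and the 10 highest per kilobase. Some items that this rule or the lists cover are not reported here. The ratios, Slc15a2 and the genes named from the lists were chosen after their values were seen. Exon lengths and gene positions are from GENCODE M21, which matched 98.4% of entries, and promoter windows from RefSeq (GRCm38.p6).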

Additional observations from a re-analysis of the deposited data

How the results depend on the processing

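No named result reversed under any alternative run. Members lower in Teff than in Naive numbered 14 with library totals alone and 15 without Teff replicate 2, and members lower in Treg than in Naive 13 with library totals alone, where the cause was not tested. Library totals alone moved the median log2 fold change of all genes to 0.0586 for Teff and 0.0854 for Treg, both against Naive. For Anergic against Treg it moved to -0.131. With 1 library left out, members called among the 4 subsets ranged from 92 to 101. Members higher ranged from 22 to 26 for Anergic against Teff, 23 to 27 against Treg and 40 to 47 against Naive, 33 to 43 for Teff against Naive, 37 to 39 for Treg against Naive and 25 to 33 for Treg against Teff. Members lower ranged in the same order from 20 to 24, 20 to 27, 25 to 31, 15 to 20, 18 to 23 and 20 to 25. Of 315 called results of named members, 28 were lost with library totals alone, 18 with DESeq2, 12 with no low-count filter, 7 of 311 with pairs of subsets alone, 3 with voom, 2 with DESeq2-type size factors, 1 with a filter of 5 CPM and 77 with 1 or another library left out.

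With the replicate number as a block, 108 members were called among the subsets, and the members higher and lower were 27 and 25 for Anergic against Teff, 32 and 31 against Treg, 49 and 35 against Naive, 42 and 23 for Teff against Naive, 43 and 27 for Treg against Naive and 34 and 26 for Treg against Teff. Over all 13393 tested genes the block called 3987, 4611, 6548, 5077, 4796 and 4343 in the same order of comparisons. Without it these numbers were 3566, 4150, 6193, 4669, 4396 and 3894, so calls rose over all genes too. Among the named members the block lost 0 of the 315 calls and gained 15. The labels do not say that a number marks a shared animal or day. Deviations of same-numbered libraries correlated at -0.0485 to 0.184, above 0.1 in 4 of 18 pairs, and 11 of 12 libraries correlated best with their own number, a hint from the data and not the design, so the numbers were not treated as pairs. Depth limits folds against subsets with few counts, such as those of Slc24a3 and Slc27a6, whose lowest subsets hold 0 and 2 counts.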

Other observations

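Beyond the subset comparisons, the replicate number was tested as a term over all genes, after the Slc15a2 values were seen. It was called for 235 of 13393 genes (1.75%) by edgeR's quasi-likelihood test, 4 of them members, namely Slc15a2, Slc4a7, Slc38a2 and Slc22a15. Slc15a2, the peptide carrier PEPT2, ranked 4 of all genes with an adjusted p of 2.9e-10. The 3 genes ranked above it were the heat shock genes Hspa1a and Hspa1b and the ribosomal entry Rps3a3, and the immediate early genes Jun and Fos were also called. The labels do not say what a replicate number stands for.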
